A study of Homo sapiens with 6 samples.

Results

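The fragile X related proteins FMR1, FXR1 and FXR2 and 7 proteins of stress granules, namely G3BP1, G3BP2, CAPRIN1, USP10, TIA1, TIAL1 and ATXN2, were followed at the level of their mRNA in HEY ovarian cancer cells upon PQBP1 knockdown. The 10 genes were taken by name from the deposited gene table of 32679 genes. No threshold on their values was used, but the set was drawn up with earlier results of these data known. All 10 had a mean of at least 1 FPKM (fragments counted on a gene, relative to its transcript length and to all fragments mapped in the sample) over the 6 samples and were among the 11413 genes tested. The 3 shNC samples carried a control hairpin, and their labels give no treatment and day 3. The 3 shPQBP1 samples carried a hairpin against PQBP1, and their labels give doxycycline at 1 µg/ml and day 3, although the text of the study also gives a shorter time of induction. The series calls the knockdown inducible by doxycycline, so by the labels the hairpin and the drug came together and their effects cannot be told apart. All 6 samples came from the HEY line, an established line of human ovarian carcinoma, and were labelled as biological triplicates. The hairpins were carried by lentivirus in cells selected with puromycin. Values are from bulk RNA, in which a change in the level per cell and a change in the share of expressing cells cannot be told apart.

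FMRP, the product of FMR1, is an RNA-binding protein that sits on ribosomes and mRNAs and mostly holds back translation, and its loss causes fragile X syndrome. FXR1 and FXR2 are its paralogs and bind RNA through the same kinds of domains. Stress granules are cytoplasmic assemblies of untranslated mRNA and protein that form when translation initiation stalls. G3BP1 and G3BP2 are their central scaffold, CAPRIN1 binds G3BP and favours assembly, and USP10, a deubiquitinase, competes for the same surface of G3BP and opposes it. TIA1 and TIAL1 are RNA-binding proteins that regulate splicing in the nucleus and bring mRNA into granules, and ATXN2, ataxin-2, binds poly(A)-binding protein and carries the polyglutamine tract expanded in a spinocerebellar ataxia.

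PQBP1, a polyglutamine-binding protein of the spliceosome, was at 7.18, 6.67 and 6.93 FPKM in the shNC samples and at 1.68, 1.72 and 1.44 in the shPQBP1 samples. It fell by 2.04 on the log2 scale (SE 0.10, limma adjusted p = 0.00154). The replicate number of the labels as a block gave the same difference with a limma adjusted p of 0.0686. Whether same-numbered samples form pairs is not known. Sample 1 of shNC stood apart from the other 5. Its values deviated from the mean of the shNC group in step with the GC content of the transcripts (Spearman's rho 0.613 across genes). The same rho was -0.518 and -0.44 in the other shNC samples and -0.325 to 0.403 in the shPQBP1 samples. Each sample was centred on the mean of its own group, so the values within a group are tied to each other. Sample 1 of shNC was the lowest of the 6 for 7 of the 10 members and for 32.1% of all tested genes. It was the highest for 1 member, FXR2, and for 32.0% of all tested genes. The log2 fold change of each member is therefore also given without that sample and with GC content and length corrected, that is, after the trend of each sample with the GC content and length of the transcripts was removed. The keratins KRT8 and KRT18 were at 52.8 to 94.6 FPKM and VIM at 1112 to 1343, whereas KRT19 was at 1.19 to 2.10 and the epithelial marker EPCAM at 0.79 to 1.13. The leukocyte marker PTPRC was listed at 0 in all 6 samples. Of the endothelial markers, PECAM1 was at 0.23 to 0.25 FPKM in shNC and at 0.02 to 0.06 in shPQBP1, and CDH5 was at 2.11 to 2.96 and at 3.10 to 3.64. The 5 markers of other cell types that were in the table, of 7 listed, summed to 2.36 to 3.28 FPKM in shNC and to 3.16 to 3.8 in shPQBP1, and their part in the results on the members was not tested.

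The members belong to families of similar coding sequence, so it was asked whether reads could be shared between paralogs. The longest stretches that the coding sequences of the canonical transcripts have in common (GENCODE 44, hg38) are shown. They are exact matches, and how far a read could match with mismatches was not tested. All are printed 5′ to 3′ in the sense of the mRNA:
G3BP1 and G3BP2: tatgttcacaatgatat
TIA1 and TIAL1: ggtaacctttccagagatgtgacagaag
FXR1 and FXR2: tatgtcattgaatatgctgc
FMR1 and FXR2: tttgaaaacaactggcag
FMR1 and FXR1: gatgttcatgaaga

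The run shared by G3BP1 and G3BP2 was 17 bases, at chr5:151794180-151794196 on the plus strand and chr4:75656977-75656993 on the minus strand. The run shared by TIA1 and TIAL1 was the longest of the 5, with 28 bases, at chr2:70236141-70236168 and chr10:119588214-119588241, both on the minus strand. FXR1 and FXR2 shared 20 bases, at chr3:180948350-180948369 on the plus strand and chr17:7603883-7603902 on the minus strand. FMR1 shared 18 bases with FXR2, across an exon junction in both genes, and 14 with FXR1, at chrX:147921945-147921958 and chr3:180933346-180933359, both on the plus strand. No stretch of 50 bases was shared within any of these families. Other genes did share such stretches with some members. For USP10, 14.85% of the 50-base windows of the canonical transcript also occurred in transcripts of 6 other genes, the first of them a processed pseudogene. The share was 3.53% for TIA1, with C2orf42, and 3.23% for FXR2, with MPDU1, both neighbours whose exons overlap the member. It was at most 0.43% for the other 7. The strand setting of the authors' counting is not stated, so FPKM of TIA1 and FXR2 may include fragments of those neighbours.

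Across the 10 members, none passed an adjusted p of 0.05 (limma, Benjamini-Hochberg over all tested genes), a call made for 2.91% of the 11413 genes (1.73% higher and 1.18% lower). G3BP1 and G3BP2 passed an unadjusted p of 0.05, both higher upon PQBP1 knockdown, beside 23.6% of all tested genes and 11.9% in that direction. At an unadjusted p under 0.05 together with more than a 2-fold difference, 1.52% of all tested genes and no member passed. The samples of the groups did not overlap for 5 members, beside 34.4% of all tested genes. G3BP1, G3BP2, CAPRIN1 and TIA1 were the 4 with all shPQBP1 samples above all shNC samples (17.3% of all tested genes), and FXR2 was the 1 with all of them below (17.1%). Without shNC sample 1 again none passed an adjusted p of 0.05 (4.07% of all tested genes), and G3BP1, G3BP2 and TIA1 passed an unadjusted p of 0.05 (24.8%). With GC content and length corrected, FXR1 and G3BP2 passed an adjusted p of 0.05 (8.24%), and FXR1, G3BP2, TIA1 and TIAL1 an unadjusted p of 0.05 (27.6%). Where that correction was made without shNC sample 1, FXR1 passed an adjusted p of 0.05 (6.78%), and 5 members, G3BP1 and the same 4, an unadjusted p of 0.05 (26.6%). The median log2 fold change was 0.10 over the members and 0.02 over all tested genes in the uncorrected fit of all 6 samples.

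**Figure D1:**
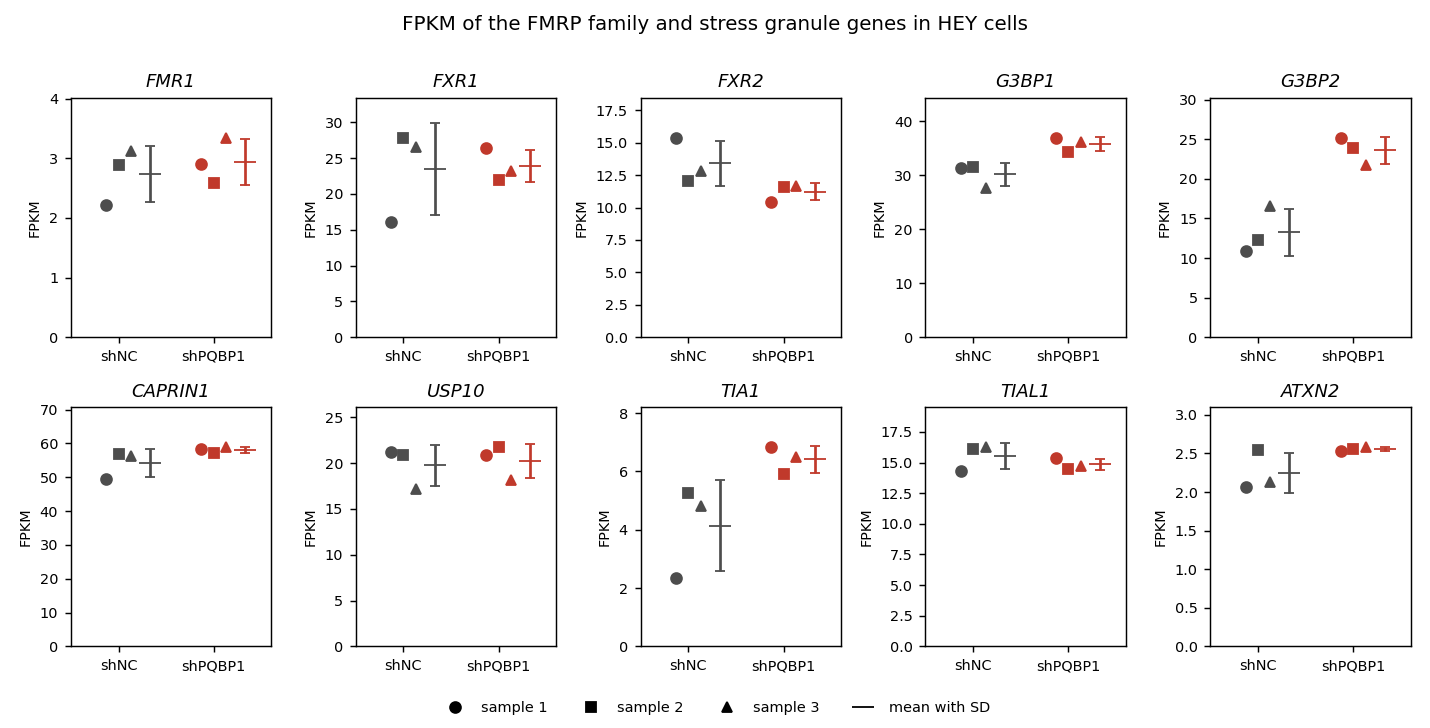
FPKM of each of the 10 genes (y axis, linear from 0, a scale of its own for each gene) in the 3 shNC samples (grey) and the 3 shPQBP1 samples (red), with marker shapes for the sample number and the mean with SD beside them. G3BP2 sits at 10.94 to 16.52 in shNC and at 21.74 to 25.16 in shPQBP1, and shNC sample 1 is the lowest point for 7 of the 10 genes.

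Of the FMRP family, FXR1 was the most abundant per length and FMR1 the least. FMR1 (ENSG00000102081, chrX:147911919-147951125, plus strand) was at 2.21, 2.88 and 3.12 FPKM in shNC and at 2.90, 2.58 and 3.34 in shPQBP1. The groups overlapped, and the highest and the lowest sample lay one in each group. For FMR1 the log2 fold change was 0.11 with a 95% interval from -0.29 to 0.51 (limma adjusted p = 0.702), and its sign turned to -0.03 without shNC sample 1 and to -0.11 with the GC and length correction. The antisense transcript FMR1-AS1 was listed at no more than 0.04 FPKM in any sample, and the intronic FMR1-IT1 was at 0.11 to 0.49.

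FXR1 (ENSG00000114416, chr3:180868141-180982753, plus strand) was at 16.07, 27.79 and 26.58 FPKM in shNC and at 26.37, 21.99 and 23.25 in shPQBP1. Sample 1 of shNC lay far below the other 5, at 0.591 times the mean of the other shNC samples. The log2 fold change was 0.06 (95% interval -0.47 to 0.59, limma adjusted p = 0.879). Without shNC sample 1 it was -0.19 (adjusted p = 0.278). With GC content and length corrected it was -0.26 (adjusted p = 0.0459), and with the correction applied and that sample left out it was -0.29 (adjusted p = 0.0491). The call for FXR1 thus appeared in the corrected fits alone, with the opposite sign to the uncorrected fit of all 6 samples, and it was absent when the replicate block was added to the correction (adjusted p = 0.176). The FXR1 transcript has the lowest GC content of the 10, 36.3%.

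FXR2 (ENSG00000129245, chr17:7591230-7614897, minus strand) was at 15.36, 12.02 and 12.81 FPKM in shNC and at 10.44, 11.57 and 11.64 in shPQBP1. All 3 shPQBP1 samples were below all shNC samples, the nearest pair being 11.64 and 12.02. FXR2 had a log2 fold change of -0.25 (SE 0.11, limma adjusted p = 0.246). The exact permutation test gave 0.1, its smallest possible p for 3 against 3 samples, as for every gene whose groups do not overlap. The difference was -0.15 without shNC sample 1, in which FXR2 was highest, and -0.07 with the correction. FXR2 has the highest GC content of the members, 59.4%.

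The FPKM of the 3 FMRP family genes summed to 33.64, 42.69 and 42.51 in shNC and to 39.71, 36.14 and 38.23 in shPQBP1. Within that sum FMR1 took 6.89% ± 0.403 (SD, n = 3) in shNC and 7.73% ± 0.879 in shPQBP1. FXR1 took 58.5% ± 9.35 and 62.7% ± 3.22, and FXR2 34.7% ± 9.59 and 29.6% ± 2.96. The shares of all 3 genes overlapped between the groups, and the wide SD in shNC came with sample 1, in which FXR1 took 47.77%. Without that sample the shNC means were 7.04%, 63.8% and 29.1% for FMR1, FXR1 and FXR2.

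G3BP2 (ENSG00000138757, chr4:75641849-75724589, minus strand) was at 10.94, 12.23 and 16.52 FPKM in shNC and at 25.16, 23.92 and 21.74 in shPQBP1. Every shPQBP1 sample was above every shNC sample, and the ratio of the means was 1.78. The log2 fold change was 0.85 (SE 0.16, 95% interval 0.46 to 1.24), the largest in size of the 10 members in this fit, with an unadjusted p of 0.00173 and a limma adjusted p of 0.0535, just above the threshold. Over all the alternative settings the log2 fold change stayed between 0.65 and 1.02, with adjusted p from 0.0389 to 0.228. It passed the threshold in 3 of 17 alternatives. These were a filter at a mean FPKM of at least 10 (adjusted p = 0.0389), the GC and length correction (0.0407) and the fit without shNC sample 3 (0.0446, log2 fold change 1.02). Without shNC sample 1 the log2 fold change was 0.73 (adjusted p = 0.0663). Without shNC sample 2 it was 0.80, and that of TIA1 was larger, at 0.91. No stretch of 50 bases of the G3BP2 transcript occurred in a transcript of another gene.

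G3BP1 (ENSG00000145907, chr5:151771045-151812911, plus strand) was at 31.33, 31.49 and 27.69 FPKM in shNC and at 36.87, 34.34 and 36.06 in shPQBP1. The groups did not overlap, with 2.15 and 1.29 FPKM as SD around means of 30.2 and 35.8. The log2 fold change was 0.25 (SE 0.08, unadjusted p = 0.0220, limma adjusted p = 0.147) and was 0.27 without shNC sample 1, but -0.06 (SE 0.19) with the GC and length correction of all 6 samples. With that correction and shNC sample 1 left out it was again positive, 0.17 (SE 0.05, unadjusted p = 0.0183, adjusted p = 0.112). At 10227 bases its canonical transcript is the longest of the 10.

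G3BP1 and G3BP2 together summed to 42.27, 43.72 and 44.21 FPKM in shNC and to 62.03, 58.26 and 57.80 in shPQBP1, which did not overlap. G3BP2 took 25.88%, 27.97% and 37.37% of that sum in shNC and 40.56%, 41.06% and 37.61% in shPQBP1. The shares were higher in all 3 shPQBP1 samples, but shNC sample 3 and shPQBP1 sample 3 were 37.37% and 37.61%. Without shNC sample 1 the mean share in shNC was 32.7%. In order of mean level G3BP2 was the seventh of the 10 members in shNC and the fourth in shPQBP1.

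**Figure D2:**
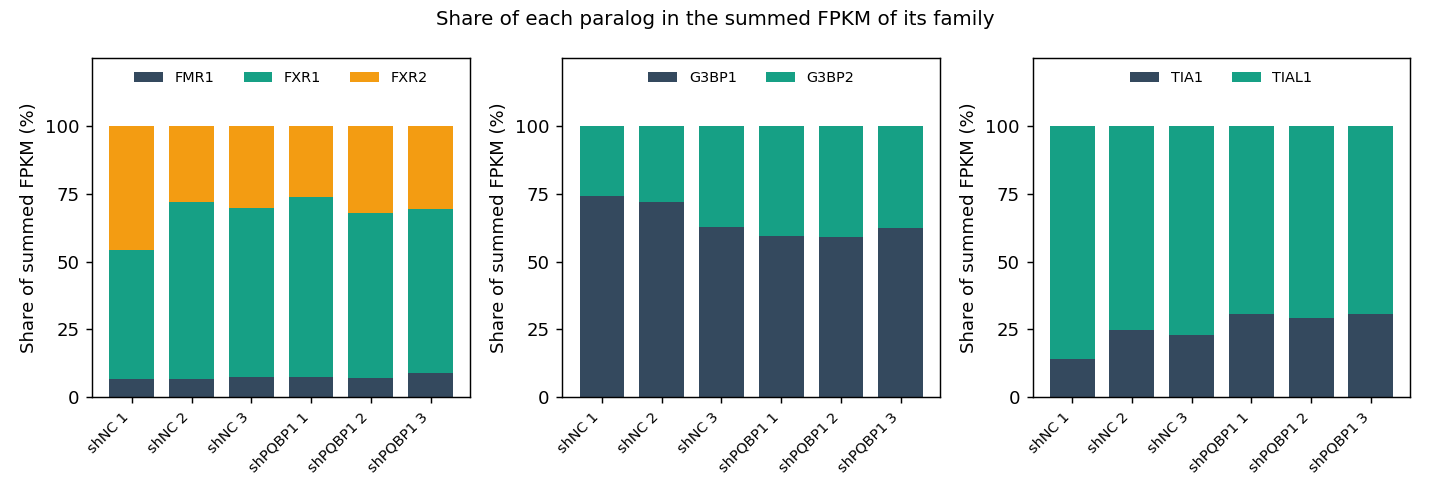
Share (%) of each paralog in the summed FPKM of its family, 1 stacked bar per sample, for FMR1, FXR1 and FXR2 (left), G3BP1 and G3BP2 (middle) and TIA1 and TIAL1 (right). The G3BP2 share is 25.88% to 37.37% in shNC and 37.61% to 41.06% in shPQBP1, and the TIA1 share is lowest in shNC sample 1, at 14.09%.

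The 2 G3BP partners showed small differences. CAPRIN1 (ENSG00000135387, chr11:34051731-34102610, plus strand) was the most abundant member in both groups, at 49.51, 56.89 and 56.35 FPKM in shNC and at 58.37, 57.15 and 58.86 in shPQBP1. The groups did not overlap, but shNC sample 2 was at 56.89 and shPQBP1 sample 2 at 57.15. CAPRIN1 had a log2 fold change of 0.10 (95% interval -0.09 to 0.29, limma adjusted p = 0.438), 0.04 without shNC sample 1 and -0.05 with the GC and length correction.

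USP10 (ENSG00000103194, chr16:84699986-84779922, plus strand) was at 21.19, 20.87 and 17.22 FPKM in shNC and at 20.86, 21.73 and 18.15 in shPQBP1. The groups overlapped, and in each of them sample 3 was the lowest. For USP10 the log2 fold change was 0.04 with a 95% interval from -0.25 to 0.32 (limma adjusted p = 0.860), and it was 0.09 without shNC sample 1 and 0.05 with the GC and length correction, but turned to -0.06 without shNC sample 3 and to -0.02 without shPQBP1 sample 2.

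TIA1 (ENSG00000116001, chr2:70209444-70248660, minus strand) was at 2.35, 5.25 and 4.83 FPKM in shNC and at 6.83, 5.92 and 6.51 in shPQBP1. All shPQBP1 samples were above all shNC samples, and shNC sample 1 was at 0.466 times the mean of the other shNC samples. The log2 fold change was 0.70 with a 95% interval from -0.03 to 1.42 (limma adjusted p = 0.223). Without shNC sample 1 it was 0.34, with an unadjusted p of 0.0131 and an adjusted p of 0.107, and with the GC and length correction it was 0.42 (adjusted p = 0.148), or 0.24 where that correction was made without shNC sample 1. Over the 16 alternatives in which TIA1 was tested the adjusted p was between 0.0695 and 0.430, and the log2 fold change was positive in each of them.

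TIAL1 (ENSG00000151923, chr10:119571802-119597029, minus strand) was at 14.33, 16.09 and 16.24 FPKM in shNC and at 15.34, 14.48 and 14.72 in shPQBP1. The groups overlapped through shNC sample 1. TIAL1 had a log2 fold change of -0.06 (95% interval -0.26 to 0.13, limma adjusted p = 0.636), -0.12 without shNC sample 1 (adjusted p = 0.265), -0.039 without shNC sample 2, -0.033 without shNC sample 3 and -0.27 with the correction (adjusted p = 0.0726). TIAL1 was the more abundant of the pair, with a ratio of FPKM to TIA1 of 6.098, 3.065 and 3.362 in shNC and 2.246, 2.446 and 2.261 in shPQBP1. TIA1 took 20.5% ± 5.65 (SD, n = 3) of their sum in shNC and 30.2% ± 0.993 in shPQBP1. Its share in shNC samples 2 and 3, 24.60% and 22.92%, was also below that in each shPQBP1 sample, 29.02% to 30.81%.

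ATXN2 (ENSG00000204842, chr12:111443485-111599676, minus strand) was the lowest of the 10 members in both groups. It was at 2.06, 2.55 and 2.13 FPKM in shNC and at 2.53, 2.56 and 2.58 in shPQBP1. The groups overlapped in 1 sample, shNC sample 2. The log2 fold change was 0.18 (SE 0.11, limma adjusted p = 0.35), and it was 0.13 without shNC sample 1, 0.22 with the GC and length correction and 0.12 with the correction made without that sample. Its antisense transcript ATXN2-AS was at 0.12 to 0.30 FPKM.

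**Figure D3:**
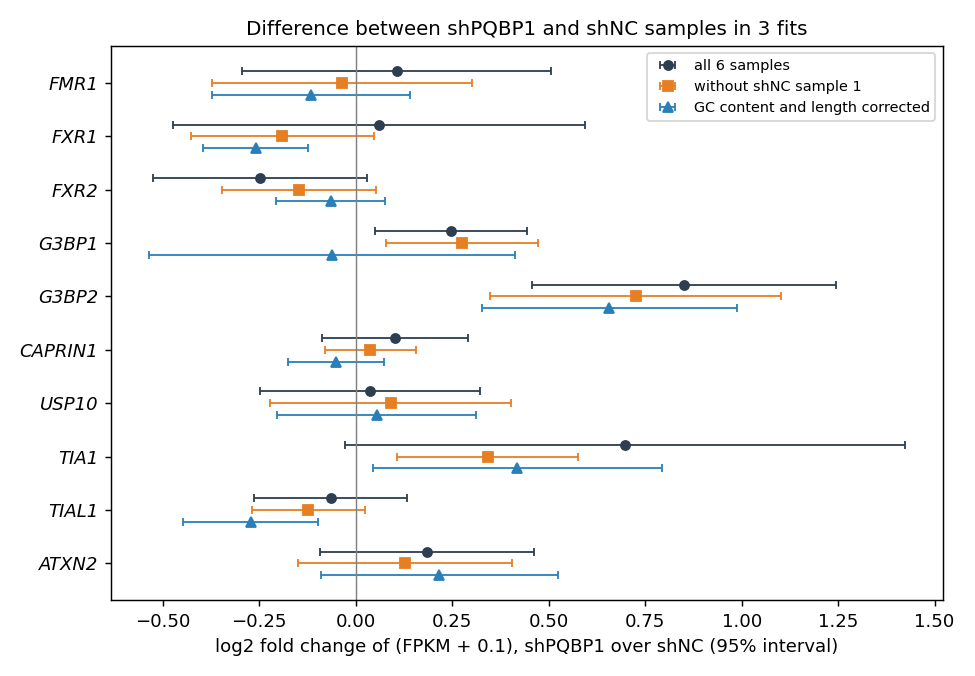
Log2 fold change of FPKM + 0.1, shPQBP1 over shNC, with the 95% interval for each member in 3 limma fits (all 6 samples, without shNC sample 1, and with GC content and length corrected). G3BP2 is positive in all 3 fits, at 0.85, 0.73 and 0.66, whereas FXR1 moves from 0.06 to -0.19 and -0.26 and G3BP1 from 0.25 and 0.27 to -0.06.

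By FPKM, a level per length, the order of the members in shNC was CAPRIN1, G3BP1, FXR1, USP10, TIAL1, FXR2, G3BP2, TIA1, FMR1 and ATXN2. Neighbours whose samples overlapped were G3BP1 with FXR1, FXR1 with USP10, TIAL1 with FXR2, FXR2 with G3BP2, TIA1 with FMR1, and FMR1 with ATXN2. In shPQBP1 the order was CAPRIN1, G3BP1, FXR1, G3BP2, USP10, TIAL1, FXR2, TIA1, FMR1 and ATXN2. There the samples overlapped for FXR1 with G3BP2 and for FMR1 with ATXN2. The 10 members summed to 165.35, 188.06 and 183.49 FPKM in shNC and to 205.67, 196.24 and 196.85 in shPQBP1.

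The genes around the members were taken from 5 lists of 80 genes, of which 78 were tested. 1 of them, JMJD6, passed an adjusted p of 0.05 and was lower, beside 1.18% of all tested genes in that direction. An unadjusted p under 0.05 was reached by 4 genes with higher and 18 with lower levels in shPQBP1, beside 11.9% and 11.7% of all tested genes. The median log2 fold change of the 78 was -0.06, that of the 10 members 0.10 and that of all tested genes 0.02.

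**Figure D4:**
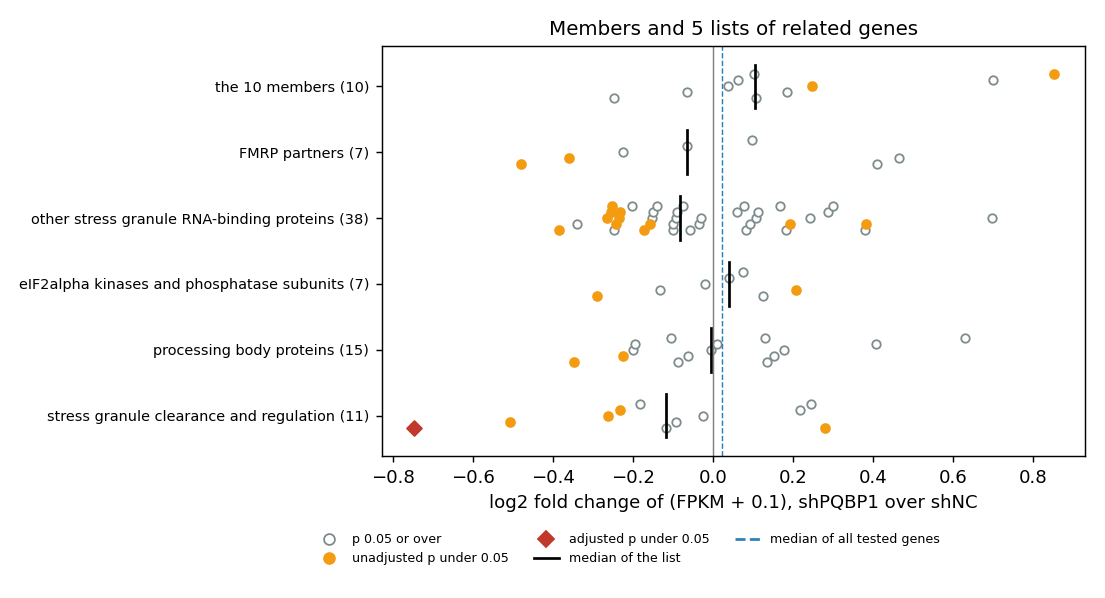
Log2 fold change of FPKM + 0.1, shPQBP1 over shNC, of each tested gene in the members and the 5 lists (number tested in parentheses), with filled circles for an unadjusted p under 0.05, a diamond for an adjusted p under 0.05, a bar for the median of each list and a dashed line for the median of all tested genes. JMJD6, at -0.75, is the diamond, and G3BP2, at 0.85, is the point farthest to the right.

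JMJD6, an oxygenase reported to act on arginine methylation of G3BP1, belonged to the list of stress granule clearance and regulation. It was at 9.33, 8.81 and 8.42 FPKM in shNC and at 5.38, 5.24 and 5.07 in shPQBP1, with no overlap. It fell by 0.75 on the log2 scale (SE 0.08, limma adjusted p = 0.0133), and its log2 fold change was -0.80 to -0.62 in the 16 alternatives in which it was tested (its mean was under the filter at 10 FPKM). The adjusted p was 0.0158 without shNC sample 1 and 0.0118 with the GC and length correction, but it was 0.0521 to 0.0856 when any one of the other 5 samples was left out, 0.150 with the replicate block and 0.103 with the block and the correction. Of the 11 tested genes of that list, 1 passed an unadjusted p of 0.05 as higher and 4 as lower, beside 11.9% and 11.7% of all tested genes, and the median was -0.12 beside 0.02 for all tested genes. ULK1, a kinase of autophagy that also acts on granule disassembly through VCP, averaged 2.38 and 1.65 FPKM in shNC and shPQBP1 (log2 fold change -0.51, adjusted p = 0.0635), and passed the threshold after quantile normalization (0.0438), without the mean-variance trend (0.0412) and with the correction made without shNC sample 1 (0.0363). With the correction of all 6 samples ULK1 was at -0.33 (adjusted p = 0.128), and with the replicate block its adjusted p was 0.268. DYRK3, a kinase that dissolves granules, averaged 9.28 and 11.25 FPKM (0.28, adjusted p = 0.151). It was at 0.15 with the correction, 0.35 (adjusted p = 0.0534) without shNC sample 1 and 0.32 (adjusted p = 0.065) with both. OGFOD1, a hydroxylase of a ribosomal protein, averaged 10.8 and 12.6 (0.25, adjusted p = 0.338, or 0.09 without shNC sample 1, 0.13 with the correction and 0.04 with both).

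None of the 7 tested FMRP partners passed an adjusted p of 0.05, and CYFIP2 and TOP3B, both lower, passed an unadjusted p of 0.05, beside 11.7% of all tested genes in that direction. TOP3B, a topoisomerase that acts on RNA and works with TDRD3 and FMRP, was at 3.24, 3.11 and 2.99 FPKM in shNC and at 2.22, 2.13 and 2.26 in shPQBP1. Its log2 fold change was -0.48 (SE 0.09, limma adjusted p = 0.0520), and it passed the threshold after quantile normalization (0.0469) and without the mean-variance trend (0.0365). With the GC and length correction it was -0.30 (adjusted p = 0.113), and with the replicate block the adjusted p was 0.259. CYFIP2, which links FMRP to the WAVE complex of actin, averaged 5.88 and 4.59 FPKM (-0.36, adjusted p = 0.133). NUFIP2, an RNA-binding partner of FMRP, averaged 11.81 and 16.03 FPKM (0.46, adjusted p = 0.218), and TDRD3, the partner of TOP3B, 0.907 and 1.203 (0.41, adjusted p = 0.328). Without shNC sample 1 these values were 0.25 for NUFIP2 and 0.18 for TDRD3, and with the correction 0.13 and 0.29, or 0.14 and 0.13 where it was made without that sample.

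Among the 38 other RNA-binding proteins of stress granules, none passed an adjusted p of 0.05 by limma, and at an unadjusted p under 0.05, 2 were higher and 9 lower, beside 11.9% and 11.7% of all tested genes, with a median of -0.08. UBAP2L, a protein needed for granule assembly, averaged 34.3 and 28.7 FPKM in shNC and shPQBP1 (log2 fold change -0.26, adjusted p = 0.106). YBX1, an abundant mRNA-binding protein with a cold shock domain, averaged 469.5 and 398.4 FPKM (-0.24, adjusted p = 0.141, or -0.13 after quantile normalization). The RNA helicase DDX1 averaged 61.65 and 79.6 FPKM (0.38, adjusted p = 0.158, or 0.24 without shNC sample 1), and the RNA-binding protein FAM120A 32.6 and 37.2 (0.19, adjusted p = 0.160).

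Phosphorylation of eIF2α is the usual trigger of stress granules. None of the 7 genes of that step, the kinases, the phosphatase subunits and EIF2S1, which encodes eIF2α itself, passed an adjusted p of 0.05 by limma, and at an unadjusted p under 0.05, 1 was higher and 1 lower, beside 11.9% and 11.7% of all tested genes. EIF2AK4, or GCN2, the kinase of amino acid shortage, averaged 7.59 and 8.77 FPKM in shNC and shPQBP1 (log2 fold change 0.21, adjusted p = 0.198). PPP1R15A, or GADD34, which brings the phosphatase to eIF2α, averaged 149.9 and 122.3 FPKM (-0.29, adjusted p = 0.137), and its value with the GC and length correction was -0.09 (adjusted p = 0.395). EIF2AK2, or PKR, had a log2 fold change of 0.13 (adjusted p = 0.564) that turned to -0.01 without shNC sample 1 and to -0.17 with the correction. For EIF2AK1, or HRI, the value was -0.13 (adjusted p = 0.313).

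Processing bodies hold the machinery of mRNA decapping and of miRNA silencing and exchange mRNA with stress granules. Of 15 tested genes none passed an adjusted p of 0.05 by limma, and 2, both lower, passed an unadjusted p of 0.05, beside 11.7% of all tested genes in that direction. The decapping activator DCP1A averaged 7.04 and 5.49 FPKM (log2 fold change -0.35, adjusted p = 0.167, or 0.0476 with the GC and length correction, 0.131 with the replicate block added to it and 0.0551 with it and without shNC sample 1), and LSM14B, a partner of the helicase DDX6, 15.3 and 13.1 (-0.22, adjusted p = 0.211, or -0.08 with the correction). The decapping enzyme DCP2 averaged 1.85 and 2.79 (0.63, adjusted p = 0.213), with 0.30 under the correction and 0.38 without shNC sample 2. TNRC6B, a scaffold of miRNA silencing, averaged 2.08 and 2.36 (0.18, adjusted p = 0.312), with -0.02 after the GC and length correction and 0.05 where that correction was made without shNC sample 1.

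The genes closest to FMR1 over the 6 samples were HDHD2, RCBTB1 and C18orf21. Their centred log2 values differed from those of FMR1 by a root mean square of 0.0331, 0.0367 and 0.0379, the smallest of all tested genes. Each had, like FMR1, its lowest sample in shNC sample 1. They were picked for their likeness over these same samples, and that sample was the lowest for 32.1% of all tested genes. HDHD2 was at 2.37, 2.90 and 3.10 FPKM in shNC and at 2.97, 2.64 and 3.38 in shPQBP1.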

How the data were processed

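Poly(A) mRNA was purified from total RNA of 3 shNC and 3 shPQBP1 samples of HEY cells and sequenced in paired ends. Per the submitters' processing notes, HISAT2 (version 2.2.0), SAMtools (version 1.9), StringTie (version 1.3.0), edgeR and the build hg38 were used. FPKM per gene and sample were used as deposited by the authors, rounded to 2 decimals. The annotation release, the strand setting and the scaling of the FPKM step are not given in the sources used here, and the depth of the samples is unknown, since FPKM hold no counts. Columns of the authors' own comparison (fold change, p, q and significance) were not used.

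Values were tested as log2(FPKM + 0.1), so fold changes of low genes are understated. The 11413 of 32679 genes that averaged 1 FPKM or more were fitted with lmFit of limma 3.58.1 in R 4.3.3. Two-sided p-values came from eBayes, which let the variance follow the mean, and were adjusted over these genes by the Benjamini-Hochberg method. limma took the place of edgeR because FPKM are not counts. Its p-values set the difference between the groups against the spread of the samples within them, with the variance of each gene drawn towards that trend. The script was tested on simulated data. In the GC and length correction, a spline of 5 degrees of freedom on each of GC content and log transcript length of the canonical transcript in GENCODE 44 was removed from each sample (11385 genes). Alternatives changed the scaling, filter, pseudocount, trend, replicate block and this correction, and left out each sample in turn.

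The members and lists were chosen with earlier results of these data known. All members and PQBP1 are named. Of the lists, the genes at an adjusted p under 0.05 and the 2 with the smallest p in each direction are named, and for FMR1 the 3 genes with the smallest root mean square difference.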

Additional observations from a re-analysis of the deposited data

How the results depend on the processing

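Of the members, FXR2, G3BP2, TIA1, TIAL1 and ATXN2 kept the sign of their log2 fold change in every alternative in which they were tested. The sign of FMR1 turned with the GC and length correction (-0.11, and -0.11 with the replicate block added), without shNC sample 1 (-0.035) and with both (-0.12), and its range when leaving out each sample was -0.035 to 0.205. That of FXR1 turned in the same settings (-0.26, -0.26, -0.19 and -0.29) and without shPQBP1 sample 1 (-0.01), with a range of -0.191 to 0.203 when leaving out each sample. G3BP1 turned with the correction (-0.062, and -0.062 with the block), CAPRIN1 likewise (-0.052 and -0.052, and -0.013 with the correction made without shNC sample 1), and USP10 without shNC sample 3 (-0.059) or shPQBP1 sample 2 (-0.02), with a range of -0.059 to 0.113. EIF2AK2 turned to -0.17 with the correction, -0.17 with the block added, -0.013 without shNC sample 1 (its range when leaving out each sample was -0.013 to 0.212) and -0.11 with both, and TNRC6B to -0.018 and -0.018. The correction without shNC sample 1 was chosen after seeing the data. The number of members at an adjusted p under 0.05 was 0 and became 1 at a mean FPKM of at least 10, 2 with the correction, 1 with the correction without shNC sample 1, and 0 to 1 when leaving out each sample. At an unadjusted p under 0.05 it was 2 and became 1 with the block, 4 with the correction, 4 with both, 5 with the correction without shNC sample 1, and 1 to 4 when leaving out each sample. With a fold change over 2 it was 0 to 1 when leaving out each sample. Of the 78 list genes, 1 passed an adjusted p of 0.05, against 3 after quantile normalization, 0 at a mean FPKM of at least 10, a filter that left out JMJD6, 3 without the trend, 0 with the block, 4 with the correction, 0 with both, 3 with the correction without shNC sample 1, and 0 to 1 when leaving out each sample. At an unadjusted p the 22 became 7 with the block, 13 with the block and the correction, and 7 to 21 when leaving out each sample. Over all genes, the 332 of 11413 at an adjusted p under 0.05 became 938 with the correction and 772 with the correction without shNC sample 1, both of 11385. They became 416 after quantile normalization, 382 without the trend and 30 to 464 when leaving out each sample. The filters changed the number of genes tested. With every gene above 0 kept 190 of 30717 passed, and at a mean FPKM of at least 10 it was 211 of 3661. With every gene above 0 kept the count at an unadjusted p went from 2689 to 4156, and at a mean FPKM of at least 10 to 956. When leaving out each sample that count was 1780 to 2940. With the replicate block 0 genes passed an adjusted p of 0.05 by limma (1840 at an unadjusted p), and 21 with the block and the correction (2417 at an unadjusted p). PQBP1 stayed at -2.04 with the block and -1.86 with the block and the correction but passed the adjusted threshold in neither (0.0686 and 0.0543). Whether the replicate numbers pair the samples is not known. Deviations of same-numbered samples from their group means correlated at -0.186, -0.138 and -0.011 across genes. These values cannot decide it, since the deviations also carry the GC trend of each sample. The causes of these differences were not tested. The median of all tested genes lay between -0.02 and 0.03 in every setting. The unknown depth limits what can be said of the members with few FPKM, FMR1, TIA1 and ATXN2.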
